A study of Vitis rotundifolia with 36 samples.

Results

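The comparison described here sets layer 2 against layer 3 of mature berries of Supreme, a purple muscadine cultivar with thin skin. Muscadine (Vitis rotundifolia) is a grape of the southeastern United States. The members were chosen by their sample titles alone and are 6 RNA sequencing libraries, 3 of Supreme layer 2 and 3 of Supreme layer 3, out of 36 in the series. The other libraries cover layers 1 and 4 of Supreme and all 4 layers of Alachua, a purple cultivar with thick skin, and Granny Val, a green one in between, with 3 libraries for each cultivar and layer. All berries were mature and came untreated from 1 research vineyard, as far as the labels say. The extraction protocol calls the layers, from outside to inside, epidermis with cuticle, hypodermis, mesocarp and endocarp. The sample tags instead give layer 2 as exocarp and layer 3 as endocarp, and call every library peel, so layers are referred to by number. Whether the replicates stem from different vines, fruit clusters or extractions is not in the labels. The p-values below therefore cover the spread among libraries only, and that spread may be technical.

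In a grape berry the hypodermis is a band of thick-walled cells beneath the epidermis and belongs to the skin, where pigments and other phenolic compounds collect. The mesocarp is the flesh, made of large thin-walled cells that store sugars, organic acids and water. The step from layer 2 to layer 3 is therefore, by the names in the protocol, the step from skin to flesh.

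The deposited values are counts of reads per gene model. Totals of the 6 libraries ran from 33608670 in layer 2 replicate 1 to 61533809 in layer 3 replicate 1. A floor of 3 counts corresponded to between 0.0423 and 0.0819 CPM (counts divided by a library's scaled total, the usual CPM unit) in a single library, and covers counting error only. Identifiers consist of a chromosome and a running number and carry no gene name or description, and 0 of 26394 could be matched to an entry of the RefSeq gene table. No pathway or cell type marker could therefore be looked up, and at most 2 gene models are named in each direction.

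Because no named marker was at hand, the labelled layers of Supreme were compared with lists set in the 12 Granny Val libraries alone. One list held 307 gene models higher in Granny Val layer 1 than in each other layer. Over these, Supreme layer 2 replicate 1 had a mean of 6.05 log2 CPM, whereas replicates 2 and 3 had 2.59 and 2.13. Granny Val itself ran from 6.03 to 6.50 in layer 1 and from 1.89 to 2.28 in layer 2. The library labelled Supreme layer 2 replicate 1 thus lay in the range of Granny Val layer 1, and the other replicates of layer 2 lay near Granny Val layer 2. The library labelled Supreme layer 1 replicate 1 stood at 2.70, while replicates 2 and 3 of layer 1 were at 5.69 and 5.70.

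The second list held 168 gene models higher in Granny Val layers 3 and 4 than in layers 1 and 2. The 3 libraries of Supreme layer 3 had means of 4.40, 4.33 and 4.97 log2 CPM over this list, against 4.86 to 5.11 in Granny Val layer 3. Supreme layer 2 stood at -1.87, -0.83 and -0.79 for replicates 1, 2 and 3. All 3 libraries of layer 3 were thus far from all 3 of layer 2, replicate 1 included.

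**Figure D1:**
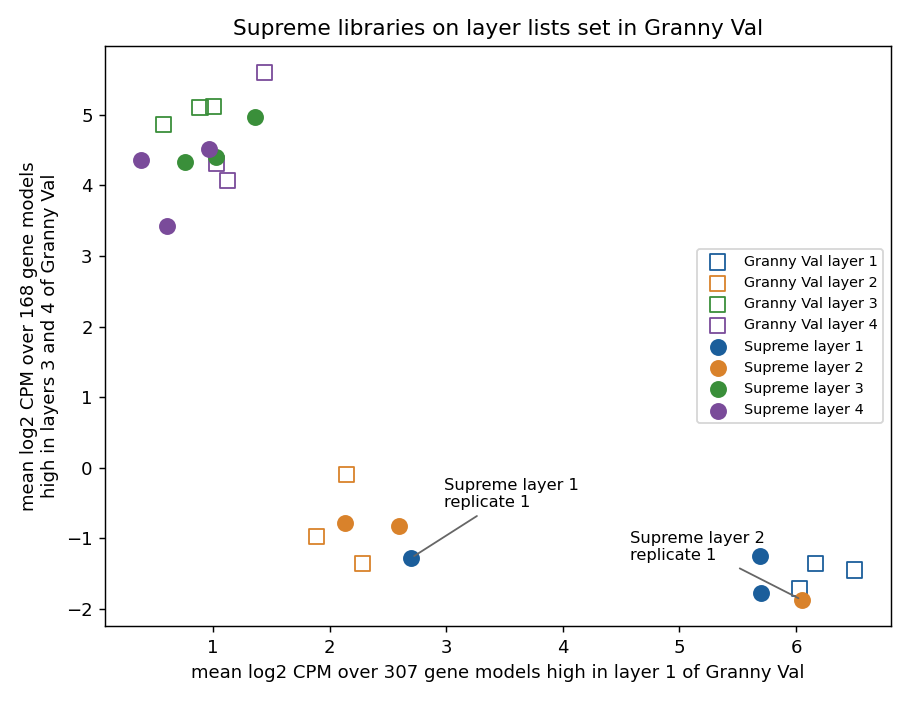
Each point is 1 library of Supreme (filled circles) or Granny Val (open squares), coloured by labelled layer. The x axis is the mean log2 CPM over 307 gene models high in Granny Val layer 1 and the y axis the mean over 168 gene models high in Granny Val layers 3 and 4. Supreme layer 2 replicate 1, at 6.05 on the x axis, lies among the layer 1 libraries, and Supreme layer 1 replicate 1, at 2.70, lies near layer 2.

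Correlations of log2 CPM across gene models gave the same picture, as a description of libraries that share a cultivar. Layer 2 replicate 1 had r = 0.854 and 0.856 with its own replicates 2 and 3, and r = 0.928 and 0.910 with layer 1 replicates 2 and 3. Replicates 2 and 3 of layer 2 had r = 0.942 with each other and between 0.950 and 0.951 with layer 1 replicate 1. Within layer 3, r lay between 0.925 and 0.947. The 3 libraries of layer 2 therefore do not form 1 group, and results that include replicate 1 are given without it as well. Layer 3 replicate 1 also stood apart in its name, which does not start with a number as those of the other 5 do. Counts above 0 were found for 19478 gene models in it and for between 15634 and 16817 in the other 5. Its correlation was 0.970 and 0.978 with layer 4 replicates 2 and 3, whose names are of the same kind, and 0.930 and 0.947 with layer 3 replicates 2 and 3. In the libraries of the series with numbered names alone, 0 gene models were called between layers 2 and 3 of Supreme, with 2726 at an unadjusted p under 0.05 by edgeR. In the Supreme ones of these alone, 224 were called higher (1.17% of 19115) and 132 lower (0.691%), 1.86% in all.

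The comparison of layers 2 and 3 asked which genes set the skin of Supreme apart from its flesh. With edgeR's quasi-likelihood test on all 36 libraries, layer 2 exceeded layer 3 for 23 gene models (0.12% of the 19241 tested) and fell short of it for 12 (0.0624%), 0.182% in all. Calls needed a Benjamini-Hochberg adjusted p under 0.05 and a change of at least 2-fold. In this fit all 12 groups share 1 estimate of the spread, and 6 libraries of the series were treated as doubtful in their layer. They are replicate 1 of Supreme layers 1 and 2, described above, and 4 of Alachua taken from an earlier look at these data. An unadjusted p under 0.05 was found for 3609 gene models. Fitted on the 12 Supreme libraries alone, 416 were higher (2.34%) and 374 lower (2.11%), 4.45% of 17758. These included 33 of the 35.

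The number of calls depended on single libraries, though not on each of them. Without layer 2 replicate 1, the fit of all libraries called 2 gene models, 0.0101% of those tested, evm.model.chr19.2094 as higher and evm.model.chr20.527 as lower. The 35 calls became 9 and 31 without layer 2 replicates 2 and 3, and 3, 2 and 7 without layer 3 replicates 1, 2 and 3. In the Supreme libraries alone 486 were called without layer 2 replicate 1, 2.66% of 18249, with 226 higher (1.24%) and 260 lower (1.42%). Of these, 440 were among the 790, which is 55.7% of the larger list and 90.5% of the smaller. The 790 became 631 and 687 without layer 2 replicates 2 and 3, and 361, 299 and 383 without layer 3 replicates 1, 2 and 3. Leaving out the 6 doubtful libraries gave 211 higher and 229 lower, 2.14% of those tested. Without replicate 1 of layers 1 and 2 the Supreme libraries gave 594 (3.28%). DESeq2 on all 36 libraries called 933 higher and 526 lower (7.58%). Without layer 2 replicate 1 DESeq2 called 202 higher and 431 lower (3.2%). The balance of directions was not stable. Higher calls outnumbered lower ones in the 12 Supreme libraries, but not without layer 2 replicate 1, nor in the 6 libraries alone (193 and 233). Nor did they without layer 3 replicate 1 (177 and 184), 2 (112 and 187) or 3 (181 and 202), or without replicate 1 of layers 1 and 2 (252 and 342). They did in the Supreme libraries without layer 2 replicate 2 (365 and 266) or 3 (431 and 256). The same held with the replicate number as a block (280 and 252) and in Supreme libraries with numbered names (224 and 132).

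**Figure D2:**
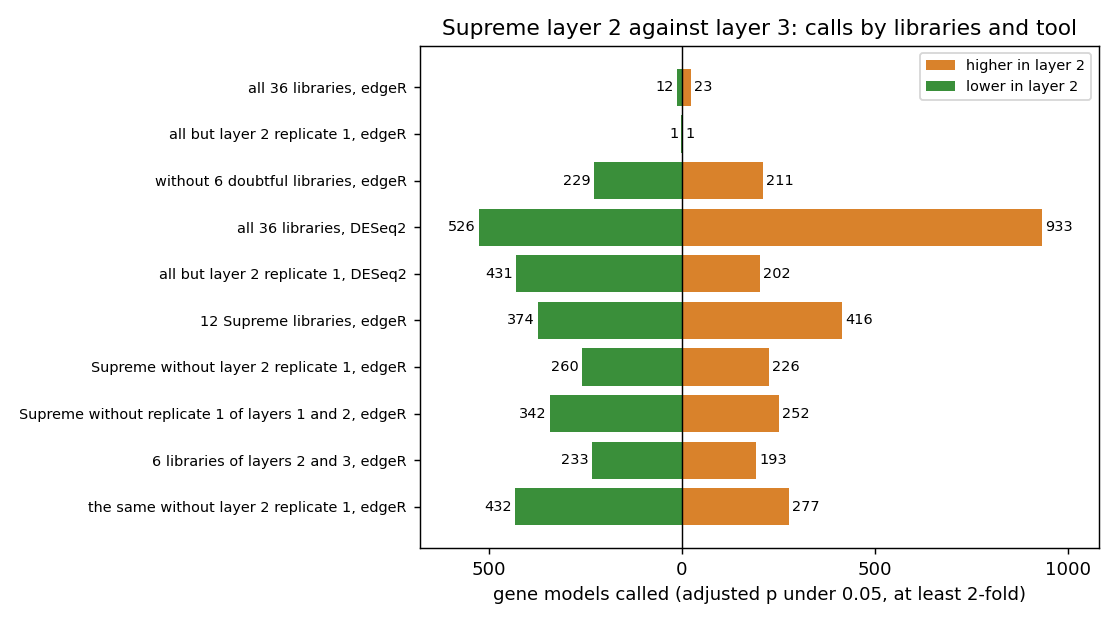
Bars give the number of gene models called higher (right) or lower (left) in Supreme layer 2 than in layer 3, by the libraries in the fit and the tool. The fit of all 36 libraries has 23 and 12, that of the 12 Supreme libraries 416 and 374, and the latter without layer 2 replicate 1 has 226 and 260.

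All 416 gene models called higher with replicate 1 had the same sign without it, and 406 of them still differed by at least 2-fold on the fitted scale. Of the 374 called lower, 374 kept their sign and 359 the 2-fold difference. The median log2 fold change of the higher ones was 3.29 with replicate 1 and 2.80 without it. Replicate 1 was the highest of the 3 layer 2 libraries for 327 of the 416. It was the lowest, with ties counted for it, for 294 of the 374. Those 294 include 145 gene models with 0 counts in all 3 layer 2 libraries, where no library is the lowest. These counts describe lists that replicate 1 helped to choose, and the share over all gene models was not taken.

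The 226 and 260 gene models called without replicate 1 leave that library, and those of layers 1 and 4, outside the contrast. Of the 226 higher ones, 225 had layer 2 replicate 1 above all 3 libraries of layer 3, a place that 34.2% of all gene models tested had. Of the 260 lower ones, 244 had it below all 3, against 33.3% of all. These places are read against the layer 3 libraries that chose the lists, so the shares over all gene models are not the shares expected for such lists.

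Among the gene models higher in layer 2, evm.model.chr19.2094 on chromosome 19 met the rule for naming. The rule took calls that held with and without replicate 1, with at least 10 CPM on the higher side and no overlap between the groups. Its level was 21.5, 16.7 and 24.1 CPM in replicates 1, 2 and 3 of layer 2 and 4.11, 2.60 and 3.59 CPM in those of layer 3. All libraries of layer 2 were above all of layer 3, which the rule required and which 11.6% of all gene models tested showed. Replicate 1 lay between the other replicates of layer 2. Layer 2 averaged 20.8 ± 3.73 CPM and layer 3 3.43 ± 0.769 CPM (SD, n = 3 each), a log2 fold change of 2.59 (SE 0.39, edgeR adjusted p = 0.0075). Without replicate 1 it was 2.56 (SE 0.43, edgeR adjusted p = 0.026). The call was lost without layer 3 replicate 2 (edgeR adjusted p = 0.072) and in the libraries with numbered names alone, with an adjusted p of 0.076, the highest of 26 alternatives. In layer 1 the level was 20.4 ± 4.61 CPM and in layer 4 it was 4.56 ± 0.80 CPM, so that layers 1 and 2 lay together and layers 3 and 4 lay together. In Granny Val the log2 fold change was 1.80, called in its libraries alone but not in the fit of all libraries (edgeR adjusted p = 0.063). The level there was 13.3 ± 1.32 CPM in layer 2 and 3.83 ± 0.697 CPM in layer 3. In Alachua it was 21.5, 20.3 and 8.25 CPM in layer 2 and 16.7, 13.4 and 8.96 CPM in layer 3, a log2 fold change of 0.36 (edgeR adjusted p = 1.00), and the difference from the Supreme step was not called (edgeR adjusted p = 0.085).

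No other higher gene model met the rule, and evm.model.chr4.2376 on chromosome 4 is named for its small adjusted p, after its values were seen. Replicate 1 of layer 2 stood at 78.8 CPM, replicates 2 and 3 at 30.2 and 32.0 CPM, and the libraries of layer 3 at 4.38, 3.65 and 3.00 CPM. The groups did not overlap, but replicate 1 stood at the level of layer 1 replicates 2 and 3, at 67.6 and 75.4 CPM, and layer 1 replicate 1 at 37.4 CPM was nearer the rest of layer 2. The log2 fold change was 3.67 (SE 0.60, edgeR adjusted p = 0.0086), and 3.07 without replicate 1, where the call was lost in the fit of all libraries (edgeR adjusted p = 0.070). It was also lost there without layer 3 replicate 1, 2 or 3, with adjusted p of 0.061, 0.083 and 0.077. In the Supreme libraries alone without replicate 1 it was called, with a log2 fold change of 3.08 (SE 0.34, edgeR adjusted p = 0.0018). The step was also called in Granny Val, at 62.0 ± 19.8 against 6.46 ± 5.57 CPM and a log2 fold change of 3.26 (edgeR adjusted p = 0.031). Alachua had 36.8, 68.2 and 15.6 CPM in layer 2 and 38.9, 7.24 and 16.9 CPM in layer 3, a log2 fold change of 0.93 that was not called (edgeR adjusted p = 0.96), and neither was its difference from the Supreme step (edgeR adjusted p = 0.12).

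Lower in layer 2 by the same rule was evm.model.chr20.527 on chromosome 20. It had 0 counts in layer 2 replicate 1, which allows up to 0.0819 CPM, and 1.19 and 1.43 CPM in replicates 2 and 3, and 24.4, 28.9 and 32.8 CPM in layer 3. Every library of layer 3 was above every library of layer 2, which the rule required and which 12.4% of all gene models tested showed. The log2 fold change was -5.02 (SE 0.83, edgeR adjusted p = 0.0086), and -4.45 without replicate 1 (SE 0.74, edgeR adjusted p = 0.026). The call held in each fit of all libraries that left out 1 of the 6. In the Supreme libraries alone it was lost without layer 2 replicate 2 or layer 3 replicate 1, 2 or 3, with adjusted p of 0.063, 0.062, 0.074 and 0.071. Layer 1 of Supreme was at 0.39 ± 0.374 CPM and layer 4 at 22.4 ± 9.68 CPM.

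The difference of this step between cultivars was tested for evm.model.chr20.527 too. Levels in Granny Val were 45.3 ± 3.91 CPM (layer 2) and 32.4 ± 11.5 CPM (layer 3; SD, n = 3 each), and Alachua had 101 ± 73.1 and 52.8 ± 17.8 CPM. In both the mean of layer 2 was above that of layer 3, the opposite order to Supreme, but replicates of these layers overlapped. Neither step was called in the fit of all libraries. The log2 fold change was 0.48 in Granny Val (edgeR adjusted p = 0.85) and 0.93 in Alachua. In the fit of all libraries the difference between the Supreme and Granny Val steps was -5.50 on the log2 scale and not called (edgeR adjusted p = 0.32), and that from Alachua was -5.95 (edgeR adjusted p = 0.058). Without the 6 doubtful libraries both were called, at -4.92 (SE 0.69, edgeR adjusted p = 0.0053) and -5.50 (SE 0.76, edgeR adjusted p = 0.0043). Without layer 2 replicate 1 alone, the difference from Alachua was -5.38 and was called too (edgeR adjusted p = 0.041).

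The remaining name, evm.model.chr2.753 on chromosome 2, again comes from the smallest adjusted p and was chosen after its values were seen. Its 3 libraries of layer 2 had 0, 4 and 0 counts, and layer 3 had 4.58, 4.44 and 2.44 CPM. Over summed counts the ratio of layer 3 to layer 2 was 128, with an exact binomial 95% interval from 49.9 to 472 that covers counting error only and not the spread between libraries. The log2 fold change was -6.85 (SE 1.11, edgeR adjusted p = 0.0086), and the call was lost without replicate 1 (-6.39, edgeR adjusted p = 0.070). In the Supreme libraries alone without replicate 1 it was called at -6.36 (edgeR adjusted p = 0.030). Granny Val had 0.458 ± 0.653 and 7.44 ± 1.74 CPM in layers 2 and 3, a step in the same direction (edgeR adjusted p = 0.063). Alachua had a far higher level in both layers, 97.7 ± 51.6 and 149 ± 117 CPM. The difference between the steps was not called for either cultivar in the fit of all libraries (edgeR adjusted p = 1.00 for Granny Val and 0.079 for Alachua).

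**Figure D3:**
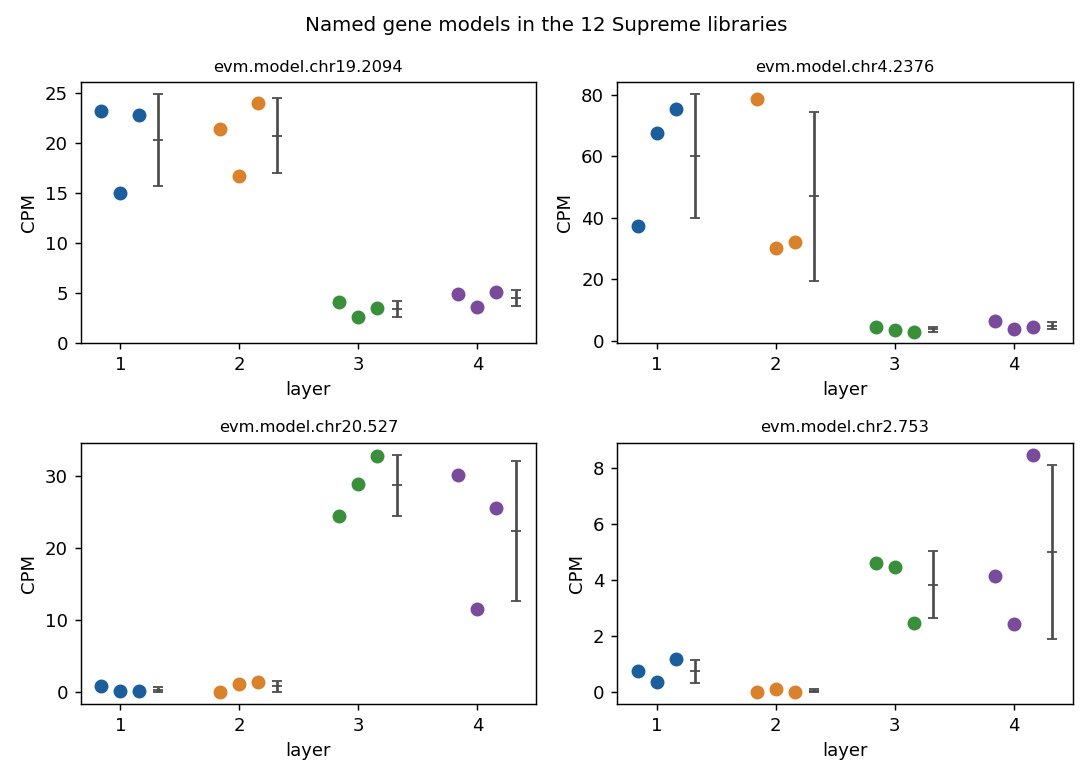
Each panel gives 1 named gene model, with the CPM of the 3 replicates of each Supreme layer in order from left to right and, beside them, the mean with an error bar of 1 SD. The upper gene models are high in layers 1 and 2 and the lower ones in layers 3 and 4. Layer 2 replicate 1 of evm.model.chr4.2376, at 78.8 CPM, stands above replicates 2 and 3.

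The called gene models were mostly of moderate abundance. Of the 416 higher ones, 93 had a mean of at least 100 CPM in layer 2, 263 lay between 10 and 100 CPM and 60 between 1 and 10 CPM. Of the 374 lower ones, 65 had at least 100 CPM in layer 3, 181 lay between 10 and 100, 125 between 1 and 10, and 3 under 1 CPM. In bulk tissue fewer cells of a type and less RNA per cell cannot be told apart. Together the higher ones took 8.39%, 4.97% and 4.44% of all counts in layer 2 replicates 1, 2 and 3. Their share in layer 3 was 0.893%, 0.836% and 0.956%. The lower ones took 0.424%, 0.619% and 0.563% of counts in layer 2 and 3.10%, 2.94% and 2.89% in layer 3. Replicate 1 was thus the extreme layer 2 library in both sums, and layer 3 varied little.

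Lower gene models more often had 0 counts on their low side, but the layers differed in depth and detection. All layer 2 libraries had 0 counts for 145 of the 374, whereas all layer 3 libraries had 0 counts for 13 of the 416. Layer 3 replicate 1 had 61533809 counts and 19478 gene models above 0, and layer 2 replicate 1 had 33608670 and 16264. A count of 0 throughout is thus harder to reach in layer 3. How far this accounts for the difference was not tested, and the share over all gene models was not taken. Folds against such groups are lower bounds, computed against 3 counts over the summed libraries of the group. With these gene models at their bound, the median log2 fold change was -5.92 for the lower ones (-6.49 as fitted) and 3.29 for the higher ones. Changes of at least 16-fold were found for 219 lower and 169 higher gene models. Without replicate 1 the medians were -6.38 at the bound (-7.43 as fitted) and 3.12, and 107 of the 260 lower ones had 0 counts in the 2 layer 2 libraries left. Over all gene models tested in the Supreme libraries the median was 0.0018.

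The higher calls had their highest level mostly in layer 1, and the lower calls mostly in layer 3. Choosing lower calls by high layer 3 values favours a peak there over layer 4. Choosing higher calls by layer 2 values likewise favours layer 2 over layer 1. The layer 1 means include replicate 1, which lay near layer 2, and peak layers over all gene models were not counted. Among the 416 higher ones, 336 (80.8%) had their highest mean in layer 1, 79 (19.0%) in layer 2 and 1 in layer 4. Since replicate 1 of layer 2 resembles layer 1, the lists without it bear more directly on layer 2. Of their 226 higher gene models, 175 (77.4%) peaked in layer 1 and 51 (22.6%) in layer 2. All 3 libraries of layer 1 lay above all 3 of layer 3 for 225 of the 226, against 16.8% of all gene models tested. All 3 of layer 4 lay below both remaining libraries of layer 2 for 222, against 17.3%. The places of layer 1 are read against the layer 3 libraries, and those of layer 4 against the layer 2 libraries, that chose the lists. The shares over all gene models are therefore a description and not the share expected for lists chosen on these values, here and for the lower ones.

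Among the 260 lower gene models the highest mean was most often within the contrast, which a choice by layer 3 values favours. It was in layer 3 for 197 (75.8%), in layer 4 for 62 (23.8%) and in layer 1 for 1. All libraries of layer 4 lay above both layer 2 libraries for all 260, against 19.7% of all gene models tested, and all of layer 1 lay below all of layer 3 for 250, against 14.9%. The mean log2 CPM over the 260 lay in layer 1 between -1.02 and -0.56, in layer 2 between -1.04 and -0.99 with replicate 1 at -0.99, in layer 3 between 4.25 and 4.55 and in layer 4 between 3.47 and 4.19. In this mean replicate 1 did not stand apart from replicates 2 and 3, whereas over the 226 higher ones it was at 6.03 against 5.08 and 4.90. The mean does not speak for each gene model. Layer 2 replicate 1 lay above all 3 libraries of layer 3 for 5 of the 260. For 107 of the 260, replicates 2 and 3 had 0 counts, so replicate 1 could not lie below them. Layer 3 replicate 1, with its other kind of name, lay between replicates 2 and 3 over both lists, at 4.36 against 4.25 and 4.55, and at 1.51 against 1.20 and 1.53.

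**Figure D4:**
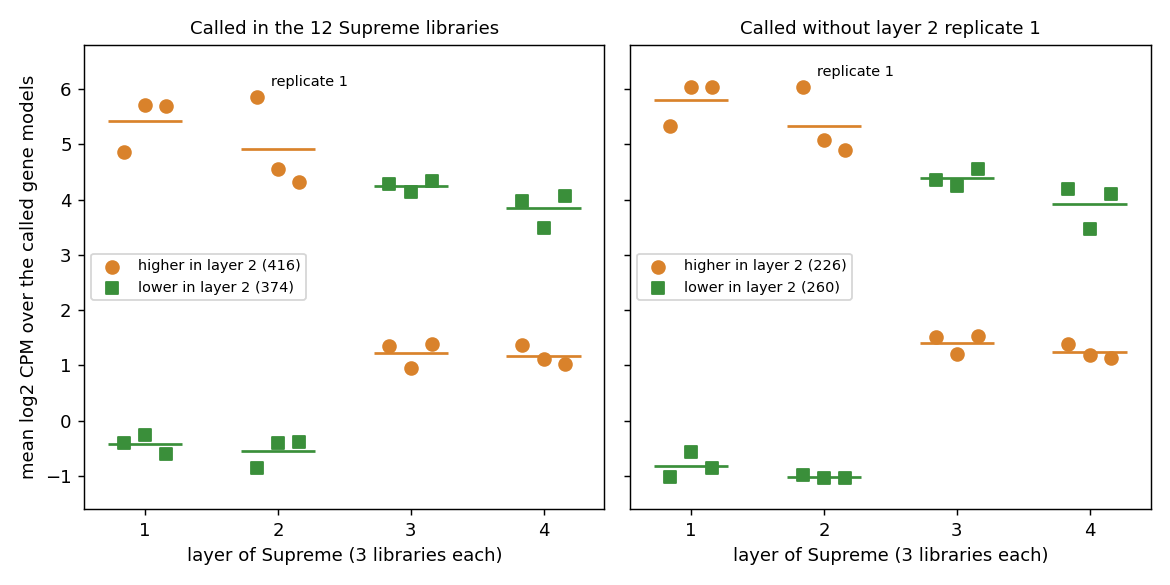
Points give, for each Supreme library, the mean log2 CPM over the gene models called higher (circles) or lower (squares) in layer 2 than in layer 3, and lines the mean of the 3 libraries of a layer. On the left are the 416 and 374 called in the 12 Supreme libraries, on the right the 226 and 260 called without layer 2 replicate 1. Layers 1 and 2 lie together and layers 3 and 4 lie together, and layer 2 replicate 1 stands out on the right among the higher ones only.

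Granny Val gave lists for the same step from libraries that the Supreme contrast does not share. In the 12 Granny Val libraries alone, 2.86% of 17388 gene models were called between the same layers, 241 as higher in layer 2 and 256 as lower. In Supreme without layer 2 replicate 1, 237 of the 241 were on the higher side, with a median log2 fold change of 2.71, and 254 of the 255 tested of the lower list were on the lower side. The median of the lower list was -5.09 with gene models at 0 at their bound, and that of all gene models tested was -0.01. By the edgeR test in those Supreme libraries, 94 of the 241 were called higher, 39.0% against 1.24% of all gene models tested. Of the 255, 121 were called lower, 47.5% against 1.42%. No member of either list was called in the opposite direction (0 and 0), in a fit where 2864 gene models had an unadjusted p under 0.05. With replicate 1 included, 138 and 143 were called, against 2.34% and 2.11% of all, and the medians were 3.55 and -4.30. The higher list thus had the larger median with replicate 1 and the lower list without it.

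**Figure D5:**
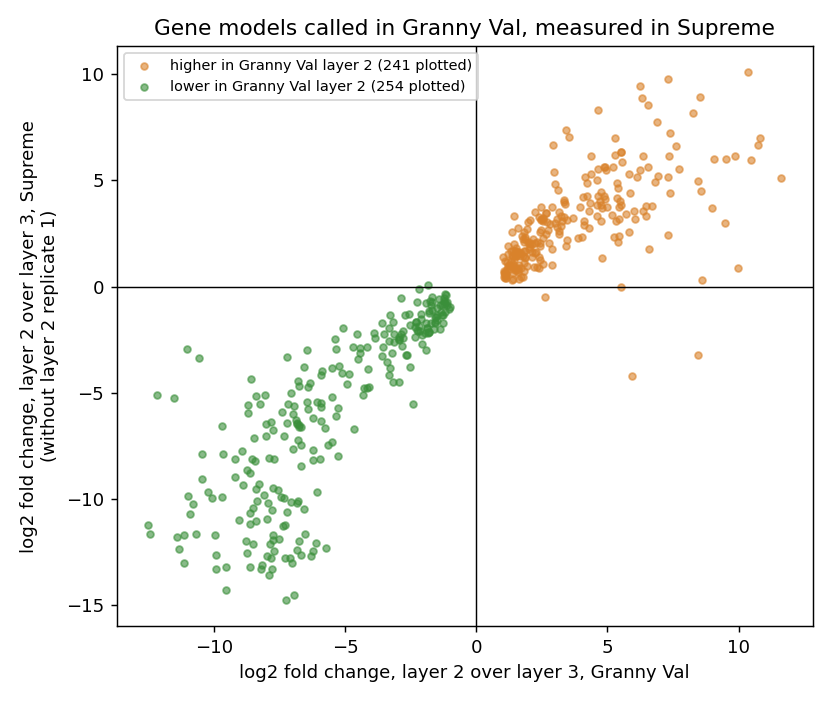
Each point is 1 gene model called between layers 2 and 3 in the 12 Granny Val libraries, with its fitted log2 fold change there on the x axis and in the Supreme libraries without layer 2 replicate 1 on the y axis. Nearly all points lie in the lower left and upper right corners, with 237 of 241 higher and 254 of 255 lower in Supreme as well, and values beyond about 10 in size come from groups at or near 0 counts.

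Read the other way, the gene models called in Supreme without replicate 1 moved with Granny Val. Of the 226 higher ones, 222 had a positive fold change in Granny Val in the fit of all libraries, and for 199 it was at least 2-fold. Of the 260 lower ones, 258 were negative. Among all gene models tested, 48.8% were positive and 51.2% negative there. In Alachua the same fit did not place the higher list mostly on the higher side. There 91 of the 226 were positive (40.3%) and 133 negative (58.85%), with a median log2 fold change of -0.28. Among all gene models tested, 46.1% were positive and 51.65% negative, so the higher list was not far from them. Of the 260 lower ones, 251 were negative, with a median of -2.18. Medians here have gene models at 0 at their bound. Alachua layer 2 replicate 3 and layer 3 replicate 1 are among the 6 doubtful libraries. Without these 6, 219 of the 226 were positive in Alachua, with a median of 2.59, against 44.5% of all gene models tested. Of the 260, 256 were negative, with a median of -4.75, against 48.9%. The direction of the higher list in Alachua thus depended on those libraries. They were treated as doubtful in their layer after an earlier look at these data. The values without them are therefore not an independent check.

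The 3 cultivars' own calls in the fit of all libraries were 35 in Supreme, 6 in Granny Val (0.0312% of those tested) and 0 in Alachua, where 1034 gene models had an unadjusted p under 0.05. DESeq2 called 848 in Granny Val (4.41%) and 156 in Alachua (0.811%). Without the 6 libraries the counts were 440, 678 (3.3%) and 307 (1.5%). A larger count in a cultivar does not show a different step, so the difference was tested. Between Supreme and Granny Val edgeR called 0 gene models, with 630 at an unadjusted p under 0.05, and DESeq2 called 171 (0.889%), 103 of them with the larger log2 fold change in Supreme. Between Supreme and Alachua edgeR called 0, with 2253 at an unadjusted p under 0.05, and DESeq2 called 874 (4.54%). The edgeR count for Alachua was 75 (0.379%) without Supreme layer 2 replicate 3, 73 of them with the larger log2 fold change in Supreme. That fit keeps layer 2 replicate 1, which resembles layer 1, and the doubtful Alachua libraries. Without Supreme layer 2 replicate 2, which keeps them too, the count was 0. Without Supreme layer 2 replicate 1 it was 1 (0.00506%), the gene model evm.model.chr20.527. That gene model was also the 1 difference from each cultivar (0.00487%) without the 6 libraries.

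The calls were spread over all 20 chromosomes. In the Supreme libraries the share called ran from 2.94% of 815 gene models on chromosome 12 to 5.98% of 1070 on chromosome 1, around 4.45% overall. Of 701 gene models tested on chromosome 16, 29 were higher and 8 lower (5.28% in all), and 15 and 8 without layer 2 replicate 1. Chromosome 1 had 29 higher and 35 lower, and 15 and 28 without it. Over all chromosomes 2.34% were higher and 2.11% lower. Whether a single chromosome departs from these shares was not tested. Of the 416 higher gene models, 74 (17.8%) had a tested neighbour, the next in number on the chromosome, that was called higher too, a position that 4.54% of all gene models tested had. For the 374 lower ones it was 54 (14.4%), against 4.12%. Without replicate 1 the values were 17 of 226 (7.52%, against 2.43%) and 26 of 260 (10.0%, against 2.80%). Neighbours can be copies of 1 gene whose reads are split between them, so they are not independent of each other.

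The longest run of neighbours called higher had 6 gene models and lay on chromosome 16, and the longest called lower had 4, on chromosome 7. Runs without replicate 1 reached 4 on the same chromosomes.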

How the data were processed

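Per the labels' protocols, polyadenylated RNA was made into libraries with a directional kit. The submitters' processing notes list HTSeq 0.11.2, STAR, DESeq2, cutadapt and SAMtools, with no role or order. Genome build, annotation and use of strand remain not given in the sources used here. The deposited files hold raw counts per gene model, 1 file per library, without normalization. The 5 special counter lines were left out of totals and tests. In the 6 libraries, reads outside gene models came to between 8.29% and 10.61% of the counts with those lines added.

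Counts were scaled with TMM and filtered with filterByExpr in edgeR 4.0.16 (R 4.3.3). A design of 12 groups was fitted to the 36 libraries (24 residual degrees of freedom), and 1 of 4 groups to the 12 Supreme libraries alone (8). Quasi-likelihood F tests of the contrasts had their p-values adjusted by Benjamini-Hochberg over all gene models tested. DESeq2 1.42.0 was an alternative, with its missing adjusted p left missing. Layer means use log2 CPM with a prior count of 2. The procedure was tested on simulated counts with a capped spread and no library out of place. That run checks the code and does not speak for the calls in these data. Standard errors are the log2 fold change divided by the root of F. Named gene models were called with and without Supreme layer 2 replicate 1, had at least 10 CPM on the higher side and no overlap between groups; where fewer than 2 met this, the smallest adjusted p filled up the names. Members, lists and the libraries treated as doubtful were chosen with earlier results of these data known. In Supreme the doubtful libraries are replicate 1 of layers 1 and 2. In Alachua they are replicate 3 of layer 2, replicate 1 of layer 3, and replicates 2 and 3 of layer 4. No replicate pair was identical, and pairs differed by 97.9 to 619 times the sampling variance. Counts of near-identical or overlapping genes are uncertain.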

Additional observations from a re-analysis of the deposited data

How the results depend on the processing

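The count of 35 gene models in the fit of all libraries stayed within 1.5 times under median-ratio scaling, a minimum of 1 CPM in 3 libraries, no fold minimum and a covariate for the kind of name. It was 1459 with DESeq2, 71 with no filter on low counts, 790 in the Supreme libraries alone, 426 in the 6 libraries alone, 440 without the 6 doubtful libraries and 0 in the 25 libraries with numbered names, where 2726 had an unadjusted p under 0.05. Leaving out 1 library gave 2 to 31. The cause of these shifts was not tested. With the replicate block it was 6, and 532 against 790 in the Supreme libraries alone. Same-numbered libraries of layers 2 and 3 had deviations correlated at 0.0051, 0.071 and -0.0026, and differently numbered ones between -0.10 and 0.074. The means behind these deviations include layer 2 replicate 1, which resembles layer 1. With 3 libraries in each layer, these values cannot decide whether the numbers pair the libraries.

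The 790 calls became 594 without replicate 1 of layers 1 and 2 and 356 (224 higher, 132 lower) in the Supreme libraries with numbered names, and 486, 361, 299 and 383 without layer 2 replicate 1 or layer 3 replicate 1, 2 or 3, in a range up to 687 with 1 library left out. The count of 2 without layer 2 replicate 1 was 633 with DESeq2, 486 in the Supreme libraries, 709 in layers 2 and 3 of Supreme alone, 594 without layer 1 replicate 1 as well, 440 without the doubtful libraries, 1 with the replicate block, 5 with the kind of name and 0 in numbered libraries (1790 at an unadjusted p under 0.05). Leaving out a further library gave 0 to 1.

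Granny Val's 6 calls were 848 with DESeq2, 0 with the replicate block (2135 at an unadjusted p under 0.05), 12 with the kind of name and 678 without the doubtful libraries, and Alachua's 0 were 156 with DESeq2 and 307 without them. The differences from Granny Val were 171 with DESeq2 and 1 without the doubtful libraries. Those from Alachua were 874 and 1, and 0 to 75 with 1 Supreme library left out. The 4 named gene models kept their direction in all 26 alternatives each, and lost their call in 2 (evm.model.chr19.2094), 5 (evm.model.chr4.2376), 8 (evm.model.chr20.527) and 4 (evm.model.chr2.753), with adjusted p up to 0.095. Where an arm has 1 library, that library is assumed to vary like the other groups. Alternatives within Supreme alone, other than all its libraries or the 6, and those repeated without layer 2 replicate 1 were chosen after seeing the data.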
